A study of Solanum lycopersicum with 17 samples.

Results

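Replicate set 3 consists of the 6 RNA-seq libraries whose titles end in replicate number 3, of 17 libraries of tomato (Solanum lycopersicum) floral buds. It was compared with the 11 libraries numbered 1 or 2, within each of 6 groups of line and stage. The comparison was chosen from expression values of these same libraries, in which set 3 lay to 1 side of the third principal component. Its fold changes and counts are therefore descriptions of these libraries, and no p-value is given for them.

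The sterile buds are of line ms1035, labelled male sterile, and the fertile buds of T-1082, labelled male fertile, each at developmental stages 1, 2 and 3. The labels number the stages without defining them. They give total RNA from TRIzol extraction and call the samples biological replicates. Set 3 holds 1 library of each line at each stage. The remaining libraries are 2 per group, except for the fertile line at stage 1, which has 1 (number 2). The labels do not say what a replicate number stands for, such as a harvest day, an extraction or a library batch. Sets 1, 2 and 3 below mean only those numbers.

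In RNA-seq libraries made from fragmented RNA, each gene is represented by reads from many places along its transcript. In such libraries a longer transcript yields more reads at the same number of molecules. Green floral buds also carry out photosynthesis in their sepals. There the abundant messages encode the small subunit of Rubisco, the carbon-fixing enzyme, and the chlorophyll a/b-binding proteins that harvest light. These proteins are small and their genes short.

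Libraries held 499608 to 817548 assigned reads, and 18089 to 19320 of 34727 gene models had reads. None of 4 library measures passed an exact permutation test of set 3 against the others of its group (two-sided, 486 arrangements, smallest possible p 0.00206). The mean difference was -64120 in total reads (exact permutation, adjusted p = 0.329) and -233.2 in genes with reads (adjusted p = 0.21). The share of uniquely assigned reads differed by -0.09895 percentage points (adjusted p = 0.403). The share taken by the 10 most abundant genes was higher by 0.8815 points (adjusted p = 0.189), and was higher in 5 of 6 groups. Summed markers of the tapetum, the inner anther layer that feeds pollen, were at 768.6 to 13550 CPM in fertile and 0 to 33.19 CPM in sterile libraries, where CPM is a gene's reads scaled to the total of assigned reads. The pollen gene on the marker list was between 0 and 22.02 CPM in all 17 libraries.

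Short genes were higher and long genes lower in set 3, in both lines. Coding length is the number of bases in a gene model, without untranslated ends. The tested genes were also split by it into 5 classes of about equal size. The coding length at the middle read, when the reads of a library are ordered by the length of their gene, was 1179, 1077 and 1134 bases in the sterile set 3 libraries of stages 1, 2 and 3. It was 1173, 1167 and 1116 bases in the fertile ones. The 11 other libraries had a lowest value of 1188, a median of 1317 and a highest of 1416 bases. Set 3 was lowest in all 6 groups, and no set 3 library overlapped any other library. The lowest single value was in the sterile library of stage 2, and the nearest of the others was the fertile library of stage 3 numbered 2.

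The share of reads in the shortest class, 183 to 729 bases, ran from 21.92% to 25.77% in set 3, with a median of 24.04%. It ran from 14.67% to 21.75% in the others, with a median of 17.81%. These ranges did not overlap. The share in the longest class, 2013 to 15315 bases, was 13.6% to 17.54% in set 3 and 16.65% to 27.6% in the others. Here the ranges overlapped, although set 3 was lowest within each of the 6 groups. Reads of the middle class, 1074 to 1440 bases, took 19.12% to 20.07% in set 3 and 19.06% to 20.3% in the others.

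**Figure D1:**
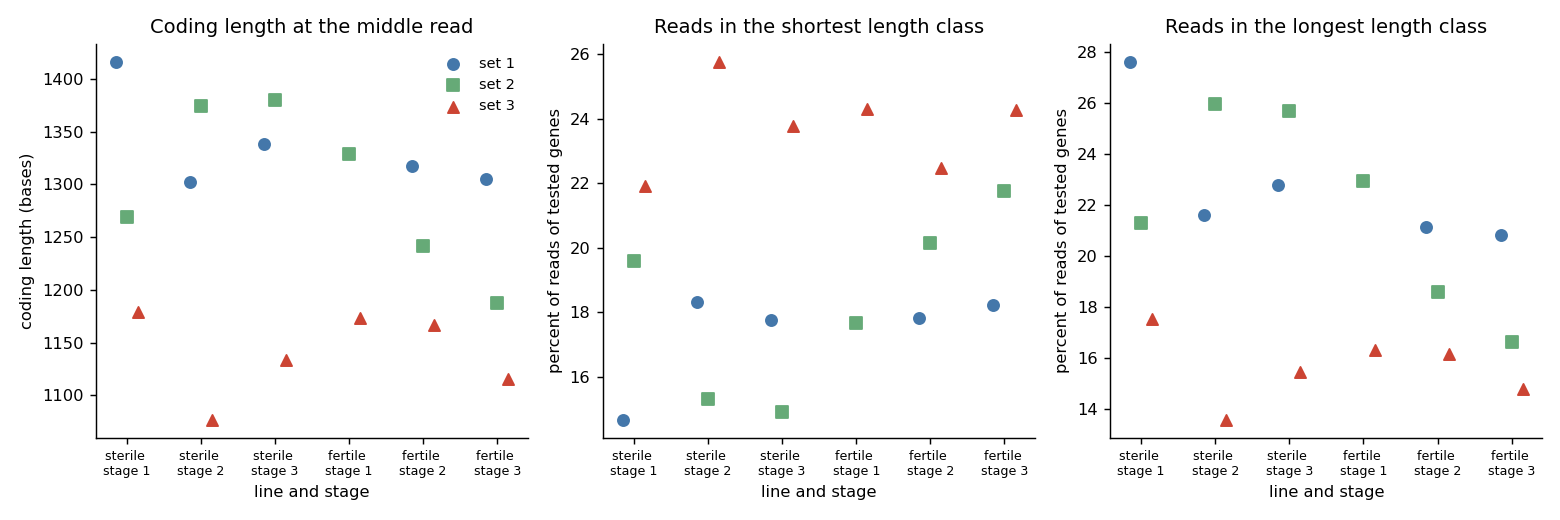
Each point is 1 library, placed by line and stage and marked by set. The left panel shows the coding length in bases at the middle read of the library, and the other panels the percent of reads in the shortest and longest of 5 length classes of tested genes. Set 3 has the lowest length in all 6 groups, between 1077 and 1179 bases.

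Across genes, 1971 of 13568 tested were called in set 3 against sets 1 and 2, which is 14.5% (edgeR quasi-likelihood fit with the 6 groups as blocks, Benjamini-Hochberg adjusted p under 0.05 as the rule of selection). Of these, 995 (7.33%) were higher and 976 (7.19%) lower. Since the contrast was chosen from these values, the share is the background for the counts below and nothing is read from it. Just inside the threshold lay Solyc08g005520, with a log2 change of 0.51 (SE 0.17), and just outside Solyc03g080060, with -0.56 (SE 0.18). The count rested in part on 2 libraries: it was 815 without the sterile set 3 library of stage 2, and also 815 without that of stage 3.

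The fitted change had the same sign in both lines for 8956 of all 13568 tested genes (66%). Among the called genes it did for 972 of the 995 higher and 975 of the 976 lower, counts that the calls over both lines together largely fix. The set 3 library lay above every other library of its group in all 6 groups for 553 genes (4.08%) and below for 487 genes (3.59%). Median coding length was 561 bases for the genes called higher, 2932 bases for those called lower and 1245 bases for all tested genes.

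Over the 5 length classes, the median log2 change in set 3 went from 0.43 in the shortest through 0.19, 0.04 and -0.13 to -0.44 in the longest. In the shortest class 701 genes were called higher and 15 lower. In the longest class 4 were called higher and 790 lower. The order was the same in each line, with medians from 0.51 to -0.56 in the sterile and from 0.32 to -0.34 in the fertile line. Across the 13568 genes, which share libraries and are not independent, the Spearman correlation of the set 3 change with coding length was -0.659. It was -0.63 within the sterile and -0.482 within the fertile line, and it lay between -0.687 and -0.606 when each library was left out in turn.

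The slope on length was negative in every group. In log2 units per doubling of coding length, set 3 minus the others was -0.299, -0.509 and -0.388 in sterile buds of stages 1, 2 and 3. In fertile buds it was -0.307, -0.179 and -0.216. The steepest slope was thus in sterile buds of stage 2 and the shallowest in fertile buds of stage 2. Between sets 2 and 1 the slope varied in sign: it was -0.275, 0.152 and 0.064 in sterile buds of stages 1, 2 and 3, and -0.15 and -0.252 in fertile buds of stages 2 and 3. Fertile stage 1 has no library numbered 1 and gives no such value.

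**Figure D2:**
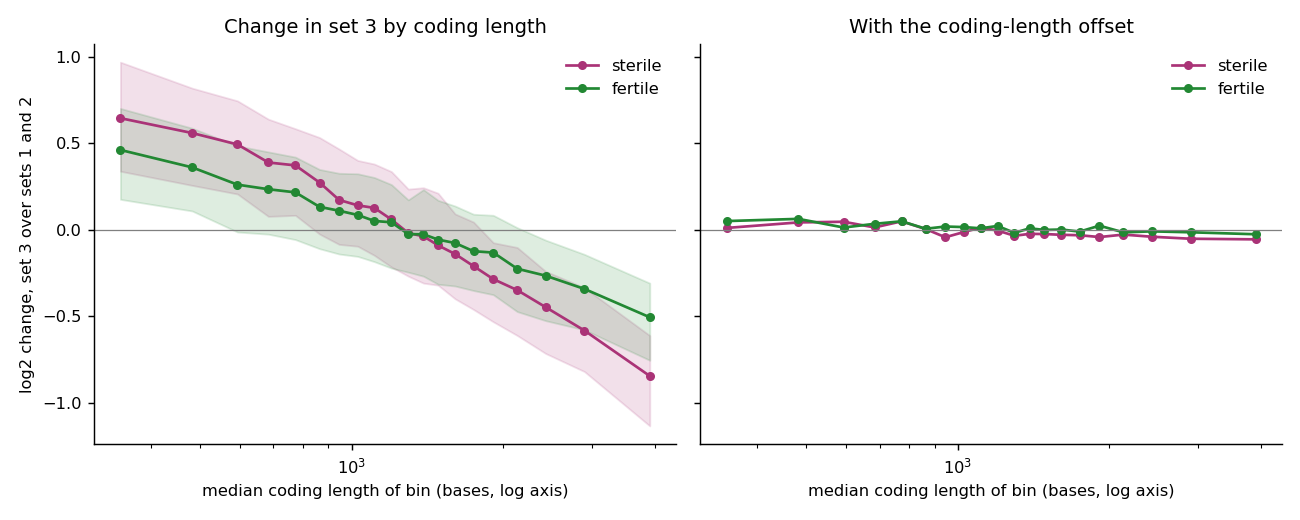
Median log2 change of set 3 over sets 1 and 2 (y axis) in 20 bins of coding length (x axis, log scale), for the sterile and fertile lines, with the quartiles as bands in the left panel. Both lines cross from above to below 0 near the middle bins in the left panel, and with a coding-length offset (right panel) all bin medians lie between -0.0554 and 0.0628.

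Because length moved with set, the fit was repeated with an offset for each library's own trend over coding length, an alternative chosen after the data were seen. With the offset 71 genes were called (0.523%), 31 higher and 40 lower. Of these, 60 had been called before, all in the same direction, and 11 had not. Their median length was 1242 bases for higher and 1296 bases for lower genes. The Spearman correlation of the changes of the lines across genes, which share no libraries, went from 0.399 to 0.126, and the share of genes with the same sign in both from 66% to 54.8%. The offset removes any difference tied to length, whether it arose in the buds or in the libraries, and these cannot be told apart here.

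Within groups, set 3 also accounted for less of the spread once length was taken out. The term for set 3 held 23.9% of the within-group variance before and 15.9% after the offset, where 1 of 11 residual degrees of freedom would hold 9.09% if all were equal. Set 3 was chosen from a principal component of these same values. A share above 9.09% and a separation on component 1 were therefore favoured by the choice and are descriptions only. The first principal component of the deviations from group means held 28.1% before and 18.9% after. On it, set 3 libraries were at 17 to 52.5 and the others at -35.3 to 4.3 before. With the trend removed, set 3 was at 11 to 33.1 and the others at -32.6 to 11.5, so the ranges overlapped.

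**Figure D3:**
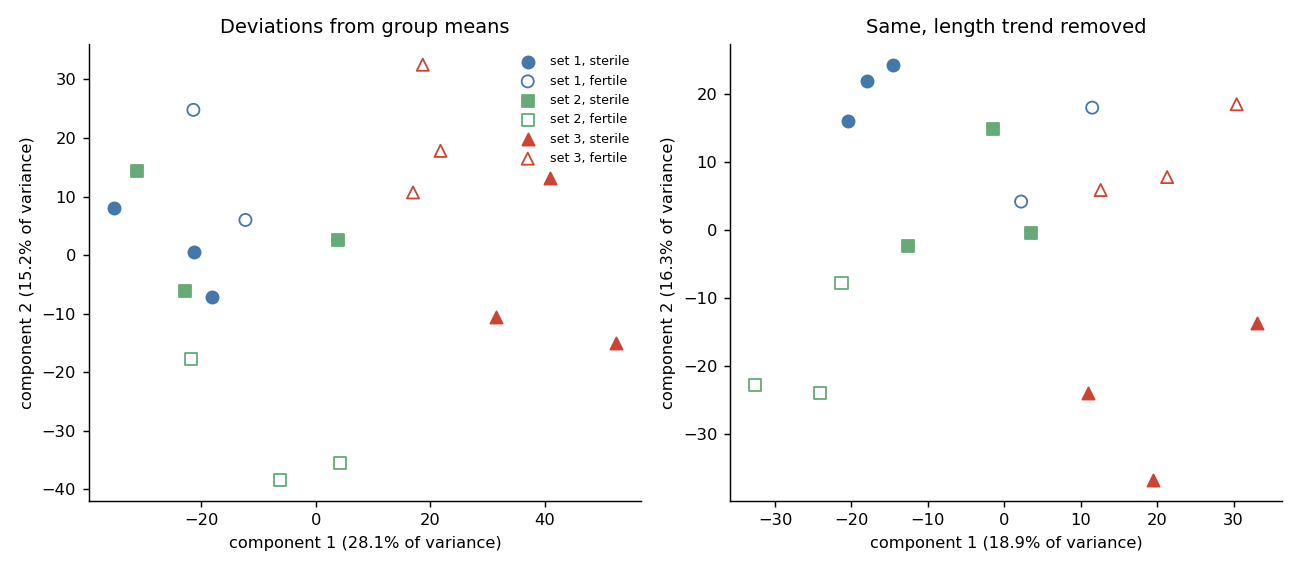
The first and second principal components of log2 CPM deviations from group means, before (left) and after (right) removal of each library's trend over coding length. Marks give the set, and filled marks the sterile line. Set 3 libraries lie at 17 or above on component 1 in the left panel, where all others lie at 4.3 or below.

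Of 305 genes on 19 lists of pathways and markers, 264 were tested. In all, 43 were called, 32 higher and 11 lower, and 5 were still called with the length offset. Of all tested genes 14.5% were called, and 0.523% with the offset. The photosynthesis list alone gave 22 of the 32 higher calls and 4 of the 5 with the offset. Of the called list members, 31 of the 32 higher were under 1000 bases and 8 of the 11 lower were over 2000 bases. The lists were drawn up with earlier results of these data known, so their counts are given as descriptions.

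Photosynthesis genes were higher in set 3. Of 27 tested genes for Rubisco and light harvesting, 22 were called higher in set 3 and none was called lower. All 27 had a positive change, with a median of 0.84 log2 against 0.01 for all tested genes. The share called higher was 7.33% of all tested genes. It was 8.19% in the length class of 732 to 1071 bases, which holds the list's median length of 798 bases, and 25.8% in the shortest class. Summed over the list, sterile set 3 libraries held 36760, 44260 and 43960 CPM at stages 1, 2 and 3, where the other 6 sterile libraries held 16600 to 26710. The sums were 1.72, 1.84 and 2.33 times the mean of the other libraries of the group. In fertile buds set 3 held 17530, 25920 and 26110 CPM and the other 5 libraries 17990 to 23110, with ratios of 0.947, 1.33 and 1.19. The sterile sums did not overlap, while the fertile stage 1 sum was below its single counterpart of 18520 CPM.

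All 3 genes for the Rubisco small subunit were called higher, with changes of 0.75 to 0.84 log2, and 19 of 22 genes for chlorophyll a/b-binding proteins, with changes of 0.41 to 1.44. Neither of the 2 genes listed as Rubisco activase, which keeps Rubisco in its active state, was called. Their changes were 0.09 and 0.22, and they are the longest of the list at 1320 and 1338 bases. All 27 members had a larger fitted change in the sterile line, with medians of 1.19 against 0.44, but 0 of the list members passed the test of the line difference. With the length offset the median was 0.60, and 26 of 27 changes were positive. Then 4 were called higher, where 0.228% of all tested genes were. Without the sterile set 3 library of stage 3 the 22 calls became 14.

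CAB4 (Solyc07g047850, 798 bases), a chlorophyll a/b-binding protein gene and 1 of those 4, was at 3280, 4170 and 3550 CPM in sterile set 3 libraries of stages 1, 2 and 3. The other sterile libraries lay between 1430 and 2360 CPM. In fertile buds set 3 held 1910, 2770 and 2430 CPM and the others 1550 to 1940. Set 3 was the highest of its group in all 6 groups. The change of CAB4 was 0.85 log2 (SE 0.14), and 0.61 with the offset.

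Solyc02g071000 (798 bases) had the largest change of the list. Its set 3 values were 198, 341 and 367 CPM in sterile and 55.4, 181 and 197 CPM in fertile buds of stages 1, 2 and 3. The other 11 libraries had a lowest value of 48.0, a median of 83.2 and a highest of 163 CPM. Set 3 was highest in each group, although the fertile stage 1 value exceeded its counterpart of 48.0 CPM by little. The log2 change was 1.44 (SE 0.22), with 1.81 in the sterile and 0.98 in the fertile line, and it was 1.19 with the offset. It is 1 of 6 listed genes with neighbouring identifiers and the same length, and 100% of its reads were assigned uniquely.

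Solyc03g005780 (804 bases), another member, was at 123, 264 and 243 CPM in sterile and 87.3, 263 and 244 CPM in fertile set 3 libraries. The others ranged from 45.4 to 140 CPM with a median of 70.1. Set 3 was highest in all 6 groups, although the sterile stage 1 value exceeded the 122 CPM of the library numbered 2 by little. The gene's change was nearly alike in the lines, 1.45 (SE 0.35) and 1.29 (SE 0.36) log2, and was 1.13 over both with the offset. By contrast RBCS3 (Solyc02g085950), for a Rubisco small subunit, was at 4950, 6820 and 7570 CPM in sterile set 3 libraries and at 1740 to 3280 CPM in the other 6. In fertile set 3 it was at 1740, 3580 and 4410 CPM, against 3170 to 4140 CPM in the others. Over all stages its values separated by set in the sterile line only. Within fertile groups set 3 was highest at stage 2, against 3280 and 3260 CPM, and at stage 3, against 4080 and 4140 CPM. At fertile stage 1 it was lower than its single counterpart of 3170 CPM. The fitted changes of RBCS3 were 1.42 in the sterile and -0.07 in the fertile line, and the difference between the lines did not pass the test.

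**Figure D4:**
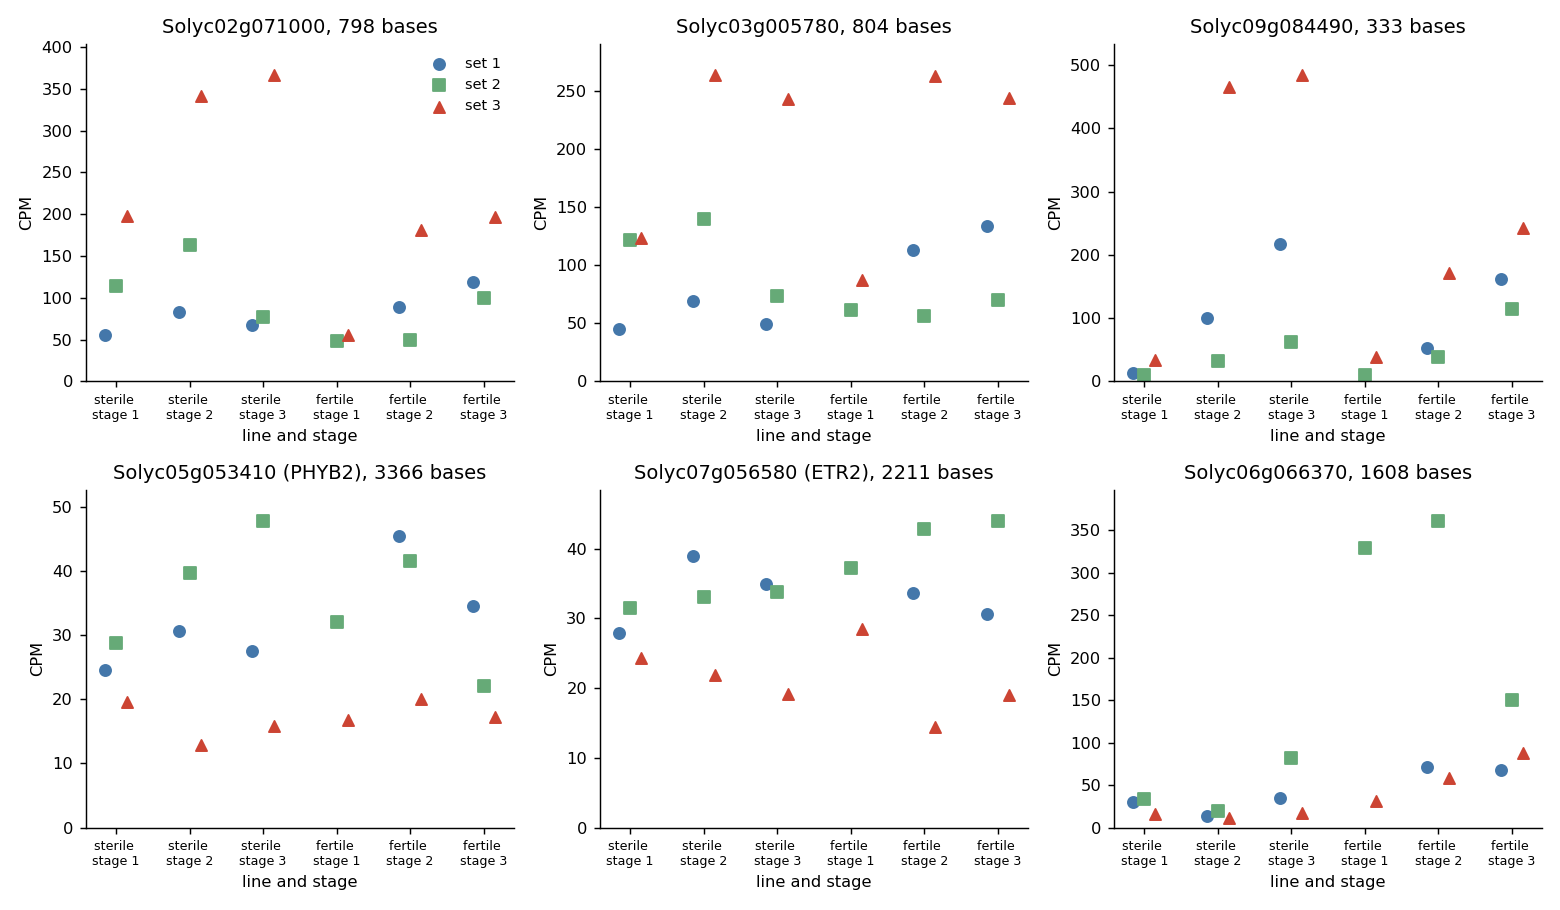
CPM (y axis, from 0) of 6 list members in each library, by line and stage (x axis) and set (marks), with coding length in the panel titles. In 5 panels set 3 lies beyond the other libraries in all 6 groups. In Solyc06g066370 it does so in 5, with 88.3 CPM in fertile buds of stage 3 between 67.8 and 150.

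Wound-inducible defence proteins include the proteinase inhibitors that protect leaves and flowers from chewing insects. Of 16 tested members 3 were called higher and 0 lower, with a median of 0.56 log2. Over all tested genes 7.33% were called higher, and in the shortest length class 25.8%. All 3 called members are in that class. Solyc09g084490 (333 bases) was at 34.1, 466 and 485 CPM in sterile set 3 libraries, and at 10.5 to 218 CPM in the other sterile ones. In fertile set 3 it was at 38.6, 172 and 242 CPM, and at 9.33 to 162 CPM in the others. Values were higher at stages 2 and 3 than at stage 1 in every set, so the sets overlap over all stages and separate within each group. The log2 change was 1.95 (SE 0.30), and 1.38 with the offset, under which it was still called. MCPI (Solyc07g007250, 234 bases), a metallocarboxypeptidase inhibitor gene, had a range of 193 to 3370 CPM in set 3 and of 62.7 to 2380 CPM in the others. Its change went from 0.99 (SE 0.31) to 0.33 with the offset, where it was not called. Outside the lists, the largest increases by the rule used were in Solyc09g084460 (336 bases; set 3 median 15.4 CPM, others 1.75) and Solyc09g089520 (351 bases; set 3 median 71.6 CPM, others 5.09). Neither was called with the offset. Their log2 changes were 4.42 and 4.70 in the sterile line, and 2.07 and 0.87 in the fertile line. In fertile buds Solyc09g089520 was at 1.68 CPM in set 3 against 1.33 CPM at stage 1. At stage 3 it was at 98.7 CPM in set 3 against 92.1 CPM in set 2.

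The list of pathogenesis-related and immune genes had the lowest median, -1.39 log2 over 11 tested members. Of these, 3 were called lower and 0 higher, where 7.19% of all tested genes were called lower. The list's median length of 990 bases is below that of all tested genes, and its median change with the offset was -1.32, where 0 members were called. Solyc10g055800 (990 bases) was at 0 to 4.87 CPM in set 3, with a median of 3.89. The others had a lowest value of 1.32, a median of 16 and a highest of 33.0 CPM. Set 3 was lowest in 5 of 6 groups, and the change was -2.06 log2 (SE 0.57), with -2.18 under the offset. Solyc06g066370 (1608 bases) was at 10.9 to 88.3 CPM in set 3, with a median of 24.7, and at 13.6 to 361 CPM in the others, with a median of 67.8. Its highest values, 329 and 361 CPM, were in fertile libraries numbered 2 of stages 1 and 2. Outside the lists, the largest decreases by the same rule were in Solyc01g087410 (1320 bases), at 0 to 3.24 CPM in set 3 and 6 to 19.2 CPM in the others, and in Solyc08g081550 (1419 bases). Only 26.8% of the reads of Solyc08g081550 were assigned uniquely, so its values (set 3 median 2.49 CPM, others 23.4) are uncertain. Both were still called with the offset.

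Lists for light and hormone perception had few called members, all lower in set 3, where 7.19% of all tested genes were called lower. None of them was called with the length offset. Of 14 light receptor and signalling genes 2 were called lower, and both encode phytochromes, the red and far-red light receptors. PHYB2 (Solyc05g053410, 3366 bases) was at 19.5, 12.8 and 15.9 CPM in sterile and 16.8, 20.1 and 17.3 CPM in fertile set 3 libraries, while the others lay between 22 and 47.8 CPM. No set 3 library overlapped any other. The change of PHYB2 was -0.88 log2 (SE 0.19), and -0.37 with the offset, where it was not called. PHYF (Solyc07g045480, 3357 bases) was at 11.1 to 21.1 CPM in set 3 and 18.7 to 47.8 CPM in the others, a change of -0.91 (SE 0.24). The median of the list went from -0.32 to 0.01 with the offset. Of 20 clock and day-length genes 1 was called lower, Solyc12g056650 (3504 bases), with a change of -0.83 (SE 0.25) that was -0.32 with the offset.

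Of 14 ethylene synthesis and perception genes 3 were called lower, with a list median of -0.55 log2. ETR2 (Solyc07g056580, 2211 bases), an ethylene receptor, was at 24.3, 21.9 and 19.1 CPM in sterile set 3 libraries and at 27.9 to 39.0 CPM in the others of that line. In fertile set 3 it was at 28.5, 14.4 and 19.0 CPM, against 30.7 to 44.0 CPM. ETR2 was lowest in set 3 in all 6 groups, with a change of -0.66 (SE 0.18), and -0.38 with the offset. CTR1 (Solyc10g083610, 2490 bases), the kinase that acts next to the receptors, had a median of 14.2 CPM in set 3 and 26.2 CPM in the others, a change of -0.77 (SE 0.23). EIN2 (Solyc09g007870, 3951 bases), which passes the signal on, had a change of -0.55 (SE 0.18) that was 0.06 with the offset. Its sign thus depended on the offset. When each of the 17 libraries was left out in turn, ETR2 was not called in 4 of the fits, CTR1 in 10 and EIN2 in 13.

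The remaining lists had few calls, to be set beside the 7.33% of all tested genes called higher and the 7.19% called lower. MYC2 (Solyc08g076930, 2070 bases), the transcription factor of jasmonate responses, was at 82.0 to 132 CPM in set 3 and 119 to 420 CPM in the others, and was the only one called of 19 jasmonate genes, with -0.57 (SE 0.18). ARF7 (Solyc07g042260, 3414 bases), an auxin response factor, was the only one called of 10 gibberellin and auxin genes, with -0.78 (SE 0.25). Both were no longer called with the offset, at -0.33 and -0.26. When each of the 17 libraries was left out in turn, MYC2 was not called in 10 of the fits and ARF7 in 11. The 420 CPM of MYC2 was in 1 library, the fertile one of stage 1 numbered 2.

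Of 11 steroidal alkaloid genes 2 were called higher. GAME11 (Solyc07g043420, 1029 bases), a dioxygenase gene of steroidal glycoalkaloid synthesis, was at 4900 to 6760 CPM in set 3 and 2440 to 6480 CPM in the others, and highest in set 3 within all 6 groups, with 0.54 (SE 0.14). The list median was 0.36, and 0.38 with the offset. Of 16 floral organ genes, 2 MADS-box genes were called higher: MBP3 (Solyc06g064840, 606 bases) with 1.05 (SE 0.30) and CMB1 (Solyc04g005320, 717 bases) with 0.75 (SE 0.22). MBP3 was highest in set 3 in all 6 groups, at 13.4 to 38.3 CPM against 3.84 to 26.5 CPM.

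Of 20 phenylpropanoid and flavonoid genes 1 was called higher, Solyc05g010320 (681 bases), with 0.45 (SE 0.12). None of 17 carotenoid, 26 heat stress, 10 abscisic acid and drought, 8 cutin and wax or 6 sucrose cleavage genes was called. Their medians were -0.12, -0.04, -0.19, 0.02 and -0.42 log2. The last list has a median length of 2182.5 bases, and its median was -0.21 with the offset. The heat stress median over both lines joined -0.50 in the sterile and 0.29 in the fertile line. Only 7 of the 26 heat stress genes had the same sign in both, and 0 list members passed the test of the line difference. The fertile value can hide differences among stages, and fertile stage 1 has a single counterpart. For example, Solyc03g115230 was at 1150 CPM in fertile set 3 at stage 1, against 340 CPM. At stage 2 it was at 378 CPM, against 214 and 225, and at stage 3 at 104 CPM, against 150 and 170. This gene does not stand for every member. Of 9 genes listed as references for normalisation, 2 were called higher: Solyc01g056940 (471 bases) with 0.63 (SE 0.15) and Solyc10g049850 (939 bases) with 0.54 (SE 0.15). The first of these was at 345 to 551 CPM in set 3 and 194 to 570 CPM in the others, and at 0.19 with the offset.

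**Figure D5:**
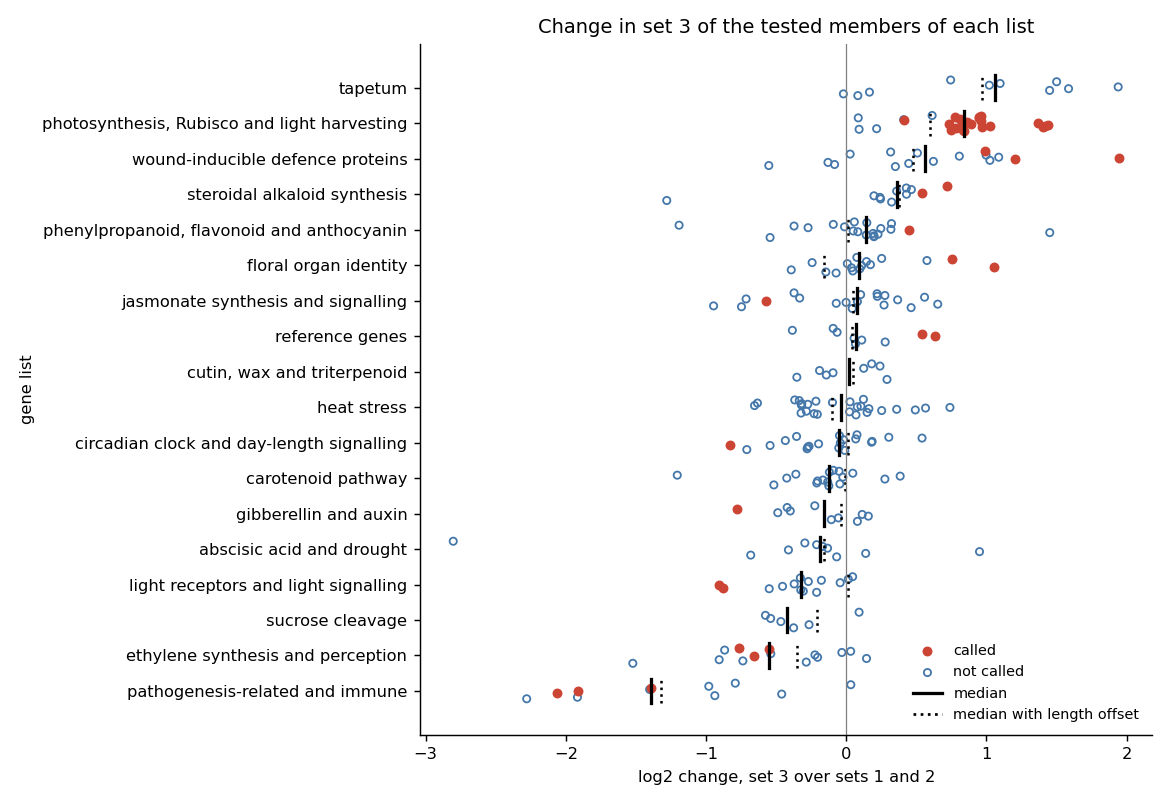
Log2 change of set 3 over sets 1 and 2 (x axis) for every tested member of each list (y axis), filled where called, with the list median as a solid line and the median with the length offset as a dotted line. Photosynthesis genes lie to the right of 0 in 27 of 27 cases, and the median of pathogenesis-related genes lies at -1.39.

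Tapetum genes were read mainly in fertile buds, and none of the 10 was called. The 10 listed genes summed to 4990 CPM in fertile set 3 at stage 1, against 1908 CPM in the library numbered 2. At stage 2 they summed to 13550 CPM, against 5558 and 2280 CPM, and at stage 3 to 4542 CPM, against 2377 and 768.6 CPM. Set 3 was the highest in each stage, at 2.62, 3.46 and 2.89 times the mean of the others. Solyc07g053460 alone held 9230 and 4430 CPM of the set 3 sums at stages 2 and 3. At stage 1 it was at 0 CPM in set 3 and 26.7 CPM in the library numbered 2. Solyc06g069220 was higher in set 3 at stage 1, with 1800 against 536 CPM. At stages 2 and 3 it was at 1530 and 8.66 CPM in set 3, below the 1940 and 16.6 CPM of set 1. The sums thus do not stand for each member. In the sterile line all sums were 33.19 CPM or less, and 5 to 10 of the 10 genes had no read per library. At stages 1 and 3 the sterile set 3 sums were 0.216 and 0.407 times the mean of the others, from few reads, and at stage 2 the sterile set 3 sum was 0. The list median was 1.06 log2 over both lines, 1.12 in the fertile and -1.22 in the sterile line, and 1 of 10 genes had the same sign in both. In these bulk samples, more tapetum cells and more RNA per cell cannot be told apart.

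Within the sterile line alone, 1348 genes were called in set 3 (9.94%), and within the fertile line 4 (0.0295%). With the length offset the counts were 53 (0.391%) and 4, and 3 (0.0221%) for the line difference. Leaving out 1 library at a time moved the sterile count between 67, without the set 3 library of stage 2, and 1920, without the stage 1 library numbered 2. It moved the fertile count between 1, without the set 3 library of stage 2, and 65, without the stage 2 library numbered 1. Such counts do not show that the lines differ, and the test of that difference called 5 genes (edgeR quasi-likelihood, adjusted p under 0.05; 0.0369%). The component that set 3 was chosen from is drawn from the same values. On it the sterile set 3 libraries lay at 32 to 59.5 and the fertile ones at 12.9 to 19.7. The test of the line difference is therefore not free of that choice, and its adjusted p-values serve as description. All 5 are outside the lists and are named here because they are few. Leaving out any 1 of the 3 sterile set 3 libraries, the fertile set 3 library of stage 2 or the fertile library of stage 2 numbered 1 left 0 calls.

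Solyc09g018960 (2766 bases) had 0 reads in each of the 3 sterile set 3 libraries, 0 of 1794379 reads. The other 6 sterile libraries held 35.7 to 76.9 CPM, and the 8 fertile ones 30.2 to 62.7 CPM, set 3 included. Its level in sterile set 3 was thus at least 33.5-fold lower than in the other sterile libraries, taking 3 reads over the 3 libraries as the most that a count of 0 allows (line difference, adjusted p = 0.0176). This bound covers counting error only.

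Solyc09g057650 (669 bases) was at 109, 82.0 and 63.6 CPM in sterile set 3 and at 176 to 358 CPM in the other sterile libraries. In fertile buds it was at 310 to 433 CPM in set 3 and 236 to 377 CPM in the others. The set 3 change was lower by 1.67 log2 (SE 0.24) in the sterile line (adjusted p = 0.0176). Solyc05g005460 (1746 bases) was at 17.8, 23.7 and 33.4 CPM in sterile set 3 against 62.9 to 125 CPM in the others, while fertile libraries lay at 51.7 to 96.1 CPM in both sets (adjusted p = 0.0446). For both genes the sterile set 3 libraries stood below all 14 others.

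Solyc07g065900 (1074 bases) moved in opposite ways: 45.4, 27.3 and 28.6 CPM in sterile set 3 against 3.49 to 23.9 CPM, and 3.36, 12.9 and 15.6 CPM in fertile set 3 against 14.7 to 38 CPM (adjusted p = 0.0465). The fertile ranges overlapped only through stage 1. Solyc01g010390 (1524 bases) was at 23.5, 1480 and 803 CPM in fertile set 3, against 8 CPM at stage 1 and 200 to 279 CPM at stages 2 and 3. In sterile buds it was at 9.11 to 14.6 CPM in set 3 and 11 to 27.9 CPM in the others (adjusted p = 0.0268). This gene is also 1 of the 4 called within the fertile line. The others are Solyc01g110110, with 26.9, 355 and 239 CPM in fertile set 3 against 10.7 to 80.7 CPM, Solyc02g077150, with 15.1, 319 and 232 against 1.33 to 83.2 CPM, and Solyc09g074670 (4977 bases), which was lower, with 25.8 to 31.9 against 63.6 to 101 CPM.

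Whether the set 3 change differed among stages was tested on all genes, and 0 were called (0%; edgeR quasi-likelihood). At an unadjusted p under 0.05 there were 307 genes, where 678 are expected without any difference, and DESeq2 also called 0, while 126 were called without a filter on low counts. Set 3 has 1 library per line and stage.

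Sets 2 and 1, compared in the same way, differed in 15 genes (0.111%), 3 higher and 12 lower in set 2 (edgeR quasi-likelihood, adjusted p under 0.05). None was on a list. Across genes the Spearman correlation of this change with coding length was -0.276, and 20 genes (0.147%) were called with the length offset. All 3 genes higher in set 2 had fertile libraries numbered 2 above every other fertile library. Solyc11g071740 was at 93.3, 139 and 48 CPM in fertile set 2 at stages 1, 2 and 3, and at 0 to 5.19 CPM in the other 5 fertile libraries (adjusted p = 0.0157). Solyc02g087210 was at 172, 192 and 128 CPM in fertile set 2, at 5.19 and 10.2 CPM in set 1 and at 10.1, 14.4 and 48.5 CPM in set 3 (adjusted p = 0.0255). Solyc01g095140 was at 228, 181 and 92.1 CPM in fertile set 2 and at 6.71 to 14.3 CPM in the other 5 (adjusted p = 0.0306). At these 3 genes the fertile libraries numbered 2, which are among those that set 3 was compared with, stood apart from both other sets. Of the genes lower in set 2, Solyc01g090600 had the smallest adjusted p, 0.00121. In fertile buds of stage 2 it was at 423 CPM in set 1, 3.67 in set 2 and 1030 in set 3, while at stage 3 all sets were at 0 to 1.28 CPM.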

How the data were processed

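Counts of all reads and of uniquely assigned reads per gene model were deposited by the authors, 1 table per library, per the file headers. The same deposited tables give gene length, another kind of value: 34726 of 34727 are multiples of 3, as in coding sequences. For the aligner, counting program, strandedness and genome build, details were not given in the sources used here, and no coordinates or sequences were used. From the total counts, filterByExpr with 6 groups kept 13568 genes with 97% or more of the reads in every library. TMM normalisation factors were 0.901 to 1.09. edgeR 4.0.16 (R 4.3.3) quasi-likelihood fits had 6 group terms plus a term for set 3, for set 3 in each line, for set 3 at each stage, or for each replicate number. A gene was called where its Benjamini-Hochberg adjusted p was under 0.05. The SE is the log2 change over the square root of F. Printed CPM use total assigned reads without TMM. The length offset is a lowess curve (span 0.3) of each library's log2 CPM deviation (prior count 2) over log2 coding length. DESeq2 1.42.0 was an alternative. Nothing says which samples share plants, so p-values measure only the spread between these samples, which may be technical.

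Replicate numbers were taken from the titles. The set, its members and the lists were chosen with earlier results of these data known. Named genes were up to 4 called members of each list with the same sign in both lines, by size of change, or, where none was called, the 2 of highest mean CPM. Up to 2 identifiers each way came from outside the lists, averaging 5 CPM or more on the higher side and set 3 beyond all others of its group in 6 groups. Not all 41 are described. CAB4, RBCS3 and the genes of the other comparisons were chosen after their values were seen. List members were recalled from the literature. A symbol is printed only where RefSeq has it on the same chromosome within 5% in gene order, as for 146 of 305 identifiers; otherwise the identifier stands alone, and its place in a list rests on recall. On simulated counts for 13294 genes the fit of set 3 without a length trend recovered 69% of genes changed 2-fold and 100% changed 4-fold, with 7 other genes called. With a simulated length trend in set 3 (13354 genes), 1011 other genes were called without and 4 with the offset, which recovered 58% and 100%. That trend was 1 straight line over log2 length, the same in all set 3 libraries. The offset removes such a trend by construction, so the 4 does not test how it handles these libraries. Their slopes by group ran from -0.509 to -0.179.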

Additional observations from a re-analysis of the deposited data

Results flagged for a closer look

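The change in set 3 differed between the sterile and fertile lines for 5 genes, by an edgeR quasi-likelihood test of the line difference with Benjamini-Hochberg adjustment. At an unadjusted p under 0.05 there were 1154 such genes, where 678 are expected without any difference. The test is not free of the choice of set 3, which came from a component of the same values. With the length offset 3 were called: Solyc09g018960, Solyc09g057650 and Solyc01g010390. In Solyc09g018960 the 3 sterile set 3 libraries had 0 reads, and in 4 of the 5 genes the change was lower in the sterile line.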

How the results depend on the processing

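With the coding-length offset, chosen after seeing the data, 71 genes were called for set 3 in place of 1971, 53 in place of 1348 within the sterile line and 3 in place of 5 for the line difference. By construction this offset removes each library's trend over length. DESeq2 called 53 genes within the fertile line, 33 for the line difference and 26 for set 2 against set 1. Without a filter on low counts the calls were 640 within the fertile line, 285 for the line difference, 126 among stages and 212 for set 2 against set 1. With a mean of at least 10 CPM, 8 were called within the fertile line. Set 3 against set 2 alone called 590, and against set 1 alone 1623. The cause was not tested. With a replicate block, the numbers as a factor, 2154 genes were called. Here that block is the comparison itself, and whether numbers pair samples by plant or day was not tested.

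Leaving out 1 library at a time gave 815 to 2216 genes for set 3, 67 to 1920 within the sterile line, 1 to 65 within the fertile line, 0 to 15 for the line difference, 0 to 0 among stages and 6 to 57 for set 2 against set 1. The sterile count was 67 without sterile stage 2 replicate 3, 203 without sterile stage 3 replicate 3, 703 without sterile stage 1 replicate 3, 595 without sterile stage 1 replicate 1 and 714 without sterile stage 2 replicate 2. The fertile count was 65 and 44 without replicate 1 of stages 2 and 3, 11 without either library of stage 1 (the one left then carries nothing on set 3), and 1 and 2 without replicate 3 of stages 2 and 3. The set 2 count was highest without fertile stage 2 replicate 3 and lowest without fertile stage 2 replicate 2. The mean difference in total reads ranged from -98000 to -40590, in genes with reads from -327.1 to -145.6, in the share of the top 10 genes from 0.6344 to 1.078 and in unique reads from -0.1798 to 0.004748, positive only without sterile stage 2 replicate 3.

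Over 29 named and called genes and 26 settings, the change reversed once, for EIN2 (Solyc09g007870) at 0.06 with the offset, and 180 values were no longer called, 23 of them with the offset. At 499608 to 817548 reads per library, counting error limits genes of few CPM.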
